A study of Rattus norvegicus with 24 samples.

Results

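Blood mononuclear cells of arthritic rats taken 1 hour after a peritoneal injection of saline, the placebo (PLA 1 hour), were compared with those of arthritic rats sampled before any therapy (CIA baseline). The members are the 2 arrays of each group, 4 of the 24 arrays in the series, chosen by their titles and not by any measured value. All were female Wistar rats, and CIA stands for collagen-induced arthritis, in which immunisation with collagen leads to swollen joints. PLA rats had sterile saline into the peritoneum once a week as the control for methotrexate and were bled under ether, and the anaesthetic of the baseline rats is not given in the sources used here. All rats were shaved. Blood was drawn in full at sacrifice, so each array was a separate rat and no rat was measured both before and after the injection. Handling, ether, the needle, the saline and the hour of sampling therefore cannot be told apart, and the baseline rats had received none of the therapies. Groups used beside them had 2 arrays each. They were MS 1 hour (arthritic rats given needle stimulation, ether) and MTX 1 hour (arthritic rats given methotrexate into the peritoneum, ether). Further ones were ANE 1 hour (arthritic rats bled under isoflurane and given no therapy) and untreated healthy rats (NOCIA) at baseline and at 1 hour. The rest of the 24 arrays were the NOCIA, MS, MTX, ANE and PLA arms at 34 days, also 2 each. They are among the arrays of other groups, and in the pooled spread, used below.

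A needle through the abdominal wall and the brief stress of restraint and anaesthesia act on blood cells by known routes. Adrenaline and glucocorticoids move lymphocytes and neutrophils between blood and tissue and act on receptors that drive cAMP and glucocorticoid target genes. Local injury releases signals that turn on NF-kB, the transcription factor behind many chemokine genes, while resident macrophages of the peritoneum carry a different program, with complement C1q and scavenger receptors. Density-gradient mononuclear cells are mainly lymphocytes and monocytes, with platelets and few neutrophils, and in bulk RNA fewer cells of a type and less RNA per cell cannot be told apart.

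Values are RMA levels on the log2 scale, where a difference of 1 is a factor of 2, and rep 1 and rep 2 name the 2 arrays of a group. The preparation was led by blood cell transcripts: in the 4 arrays the T cell gene Cd3g lay between 11.57 and 12.57, the B cell gene Ms4a1 between 8.60 and 9.89, the myeloid gene Lyz2 between 14.21 and 14.40, the platelet gene Pf4 between 14.33 and 14.61 and haemoglobin Hbb between 14.73 and 14.86. PLA rep 2 stood apart from the other 3 arrays. It lay at 39.50 on the first principal component, which held 45.85% of the variance, against -15.88 for PLA rep 1 and -26.27 and -32.82 for the CIA baseline arrays. Its mean centred platelet level was 0.95, against -0.21 in PLA rep 1 and -0.44 and -0.65 at CIA baseline. Across probe sets, rep 1 minus rep 2 had an SD of 0.494 for PLA and 0.286 for CIA baseline. The part of platelets in the results was not tested beyond the fits with platelet level as a covariate given below. The difference between 3' and 5' probe sets of a control gene is a sign of RNA integrity. For Gapdh it was 0.14 and 0.11 in the PLA arrays and 0.02 and 0.05 at CIA baseline. For beta-actin it was 0.50 and 0.48 in PLA and 0.54 and 0.59 at CIA baseline. For hexokinase it was 1.44 in PLA rep 1 and 1.90 in PLA rep 2, against 1.41 and 1.10 at CIA baseline. On hexokinase PLA rep 2 was the highest array of the series and CIA baseline rep 2 the lowest. The part of RNA integrity in the results was not tested.

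Chemokines and other inflammatory genes were higher after saline, with 12 of 27 genes of the Inflammatory list past the study thresholds, and genes such as Ccl24, Axl and C1qa, known from macrophages, were higher as well. The chemokine Cxcl1 had the largest value of the genes named here, at 5.82 ± 1.02 (SE, limma, n = 2 and 2), and Ccl24, Axl and C1qa followed with 4.51 ± 1.05, 3.34 ± 0.75 and 3.19 ± 0.71. Jchain, which joins the units of IgM and IgA, differed by -1.67 ± 0.30. None of these values passed correction for all probe sets. limma called 0 of 20690 probe sets (0%) at a Benjamini-Hochberg adjusted p under 0.05, where the smallest adjusted p was 0.0758 for Cks2, and 1425 (6.89%) lay at an unadjusted p under 0.05. At the thresholds used in the study, unadjusted p under 0.05 and more than 2-fold, 147 probe sets (0.71%) were higher and 137 (0.662%) lower. The study also dropped genes with an absent detection call, a step not taken here. In all 284 the groups did not overlap, and over all probe sets both PLA arrays lay above both baseline arrays in 4198 (20.3%) and below in 6565 (31.7%). An exact two-sided permutation test of 2 against 2 arrays cannot give a p below 0.333, and every p of the main fit rests on the spread pooled over the 12 groups. The higher probe sets had a median of 1.55 in PLA rep 1 and 1.56 in rep 2 against the baseline mean, with 86 further up in rep 1 and 61 in rep 2, while 114 of the 137 lower ones were further down in rep 2. Against the 20 arrays of other groups, the higher probe sets lay at a median of 1.08 in PLA and -0.52 in CIA baseline, and the lower ones at -0.50 in PLA and 0.64 in CIA baseline, so part of each difference was a baseline apart from the other groups. Both PLA arrays lay above all of those 20 in 12 of the 147, against 40 of all 20690. The probe sets were chosen by their values in these same PLA and CIA baseline arrays. Their position against other groups therefore follows in part from that choice and supports nothing. Without PLA rep 2 the count was 138 higher and 53 lower, without PLA rep 1 it was 305 and 490, and without CIA baseline rep 2 it was 89 and 102.

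Of the 15 genes named as higher, the one with the strongest statistic was Cks2, a small subunit of cyclin-dependent kinases. It measured 10.59 and 10.58 in the PLA arrays and 8.94 and 8.82 at CIA baseline, a difference of 1.71 ± 0.24 (limma adjusted p = 0.0758). The arrays of each group were closer to each other than to any of the other group, and Cks2 was called in 5 of the alternatives, including the fit with platelet level. The CIA baseline arrays ranked 3 and 4 from the bottom of all 24 arrays, above only the NOCIA baseline arrays (8.06 and 8.09). The PLA arrays ranked 6 and 7 from the top, and the ANE 1 hour arrays, from rats without an injection, measured 9.98 and 10.08. Sdc4, syndecan 4, a heparan sulphate proteoglycan of the cell surface, measured 8.62 and 9.87 after saline and 7.25 and 6.95 at baseline (2.14 ± 0.37, adjusted p = 0.181). Birc3, an inhibitor of apoptosis in TNF receptor signalling, measured 9.99 and 9.51 against 8.14 and 8.15 (1.61 ± 0.32, adjusted p = 0.207). Gadd45b and Gadd45g, which are induced by stress and growth arrest, were higher by 2.27 ± 0.47 and 2.11 ± 0.45. For Gadd45b the CIA baseline arrays ranked 1 and 4 from the bottom, with the NOCIA baseline arrays (8.33 and 8.18) between them. Its PLA arrays ranked 3 and 10 from the top. Batf, a transcription factor of the AP-1 family, lay at 10.72 and 9.75 after saline, the 2 highest values of the 24 arrays, and at 8.63 and 8.03 at baseline (1.90 ± 0.41). Chac1, which degrades glutathione, differed by 1.01 ± 0.21, and Ccnd1, cyclin D1, by 2.29 ± 0.51 on the named probe set and by 1.26 ± 0.44 and 1.23 ± 0.29 on the others. Asz1, known as a germ-cell gene, stood at 3.09 and 3.08 at baseline, near the bottom of the scale, and at 5.78 and 5.49 after saline. NOCIA 1 hour rep 2 (5.86) and MTX 1 hour rep 1 (5.17) were the only other arrays above 3.95, so the gene passed the filter on low values through few arrays, and the stricter filter removed it.

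**Figure D1:**
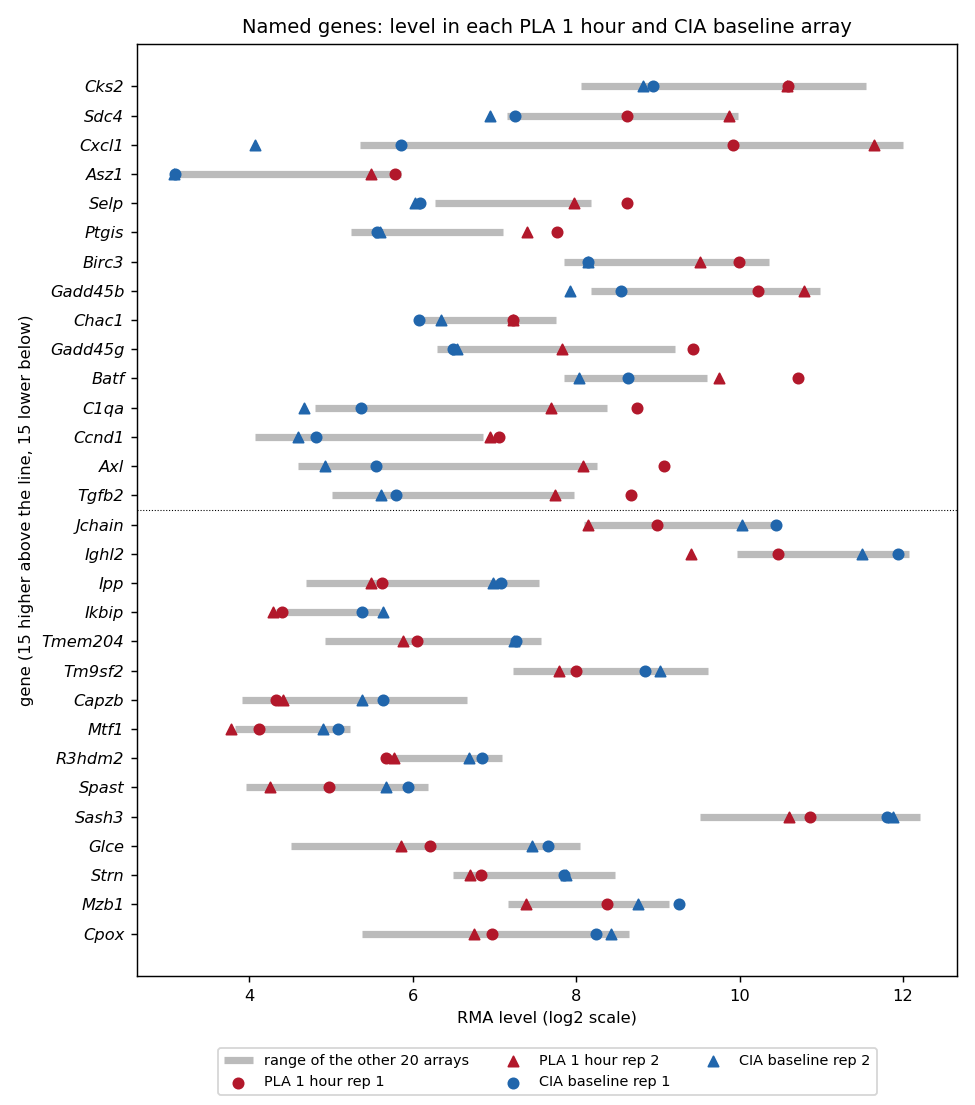
RMA level (log2 scale, horizontal axis) of the 30 named genes in each PLA 1 hour array (red) and CIA baseline array (blue), with circles for rep 1 and triangles for rep 2, and a grey bar from the lowest to the highest of the other 20 arrays. The red and blue points do not overlap for any gene, as the naming rule required, and for Cxcl1 both PLA arrays lie inside the grey bar, which starts at 5.35, while CIA baseline rep 2 lies at 4.07, below it.

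The Inflammatory list holds cytokines, chemokines, adhesion molecules and NF-kB regulators. Of its 27 genes tested, 12 were past the study thresholds, all higher (44.4%), against 92 of 11057 genes higher (0.832%) and 51 lower (0.461%). In 24 of the 27 both PLA arrays lay above both baseline arrays, against 2099 of all 11057 genes. The median difference of the list was 1.06, against -0.07 over all genes tested. It was 0.57 in PLA rep 1 and 1.36 in PLA rep 2, each taken against the mean of the baseline arrays. Cxcl1, which draws neutrophils, measured 9.92 and 11.64 after saline and 5.86 and 4.07 at baseline, a 56.4-fold difference. On the log2 scale the difference was 4.92 without CIA baseline rep 2, 4.95 without PLA rep 2, 6.68 without PLA rep 1 and 6.72 without CIA baseline rep 1. Cxcl2, its close relative, measured 11.11 and 12.04 against no more than 9.19 (2.48 ± 0.88). The monocyte chemokine Ccl2 measured 6.30 and 8.56 against 4.90 and 4.49 (2.74 ± 0.94). For all 3 genes rep 2 was the higher PLA array, and neither PLA array came down to the baseline values.

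The cytokine Il1b measured 10.74 and 11.81 after saline and 8.92 and 8.69 at baseline (2.47 ± 1.04, adjusted p = 0.694). Tnf measured 5.84 and 8.82 against 5.28 and 5.27 (2.05 ± 0.75), so most of its difference came from PLA rep 2. Ptgs2, cyclooxygenase 2, did so altogether, with 5.00 in PLA rep 1 and 7.49 in rep 2 against 5.05 and 4.75, and its groups overlapped. The adhesion molecule Icam1 differed by 1.54 ± 0.53, the interferon-induced chemokine Cxcl10 by 1.81 ± 0.72, Ccl3 by 1.22 ± 0.42, Cxcl3 by 1.17 ± 0.34 and the chemokine-binding receptor Ccrl2 by 1.98 ± 0.87. The early-response gene Ier3 measured 8.34 and 8.87 against 5.65 and 6.81 (2.37 ± 0.57). Without PLA rep 2 the genes of this list past the study thresholds were 3, Birc3, Cxcl1 and Ier3. Without CIA baseline rep 2 they were 7, without PLA rep 1 14, and with platelet level as a covariate 15. Members at the other end were Nfkb1, an NF-kB subunit, at -0.36 ± 0.27 and Nos2, inducible nitric oxide synthase, at 0.04 ± 0.19.

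**Figure D2:**
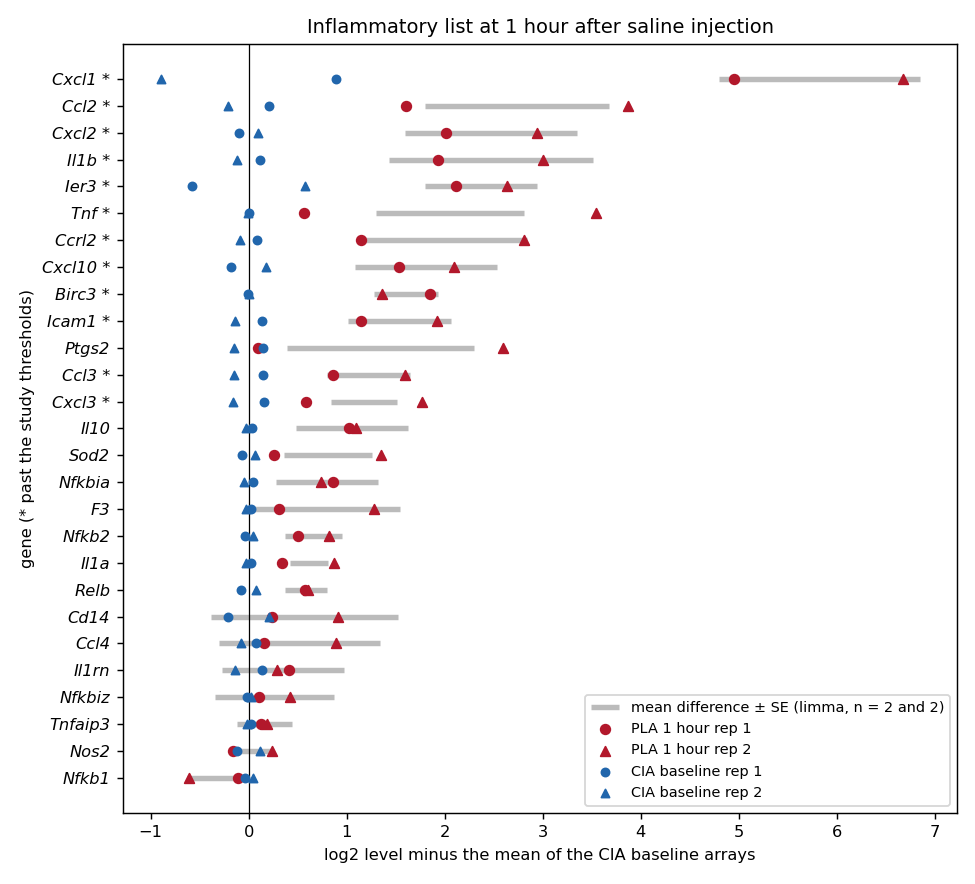
Log2 level of the 27 Inflammatory genes in each PLA 1 hour (red) and CIA baseline array (blue), minus the mean of the baseline arrays (horizontal axis), with grey bars for the mean difference ± SE from limma and asterisks for the 12 genes past the study thresholds. Red triangles (rep 2) lie to the right of red circles (rep 1) for most of the upper genes, with Birc3 the exception among those with an asterisk.

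The CIA baseline arrays were low for these genes among all groups. The Inflammatory list had a mean centred level of -0.92 and -0.98 in the CIA baseline arrays, -0.36 and -0.44 in the NOCIA baseline arrays, and -0.03 and 0.75 in the PLA arrays, while the 20 arrays other than PLA 1 hour and CIA baseline ran from -1.15 to 0.89. Cxcl1 measured 10.06 and 9.57 in healthy rats at baseline, near PLA rep 1, and the 20 other arrays had a median of 9.01. The CIA baseline arrays ranked 1 and 3 from the bottom of all 24 for Cxcl1. For Il1b they ranked 2 and 3 from the bottom, and the PLA arrays ranked 8 and 14 from the top.

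The 3 chemokine genes of this list with an NF-kB type match in the promoter are shown here, since they were higher together and the list holds many known NF-kB targets. The RefSeq table for GRCr8 held 7 of the 12 genes past the thresholds, and the search covered the 250 bases before each start on both strands. A motif of GGG, any 3 bases and TTCC, chosen after the values were seen, occurred in 3 of the 7 (Cxcl1, Cxcl2 and Cxcl10) and in 1516 of 33469 promoters (4.53%). The stretches are chr14:17479322-17479571 on the minus strand for Cxcl1, chr14:17467256-17467505 on the minus strand for Cxcl2, and chr14:15988816-15989065 on the plus strand for Cxcl10. They are printed 5' to 3' with the matches in capitals, and overlapping matches run together.
Cxcl1: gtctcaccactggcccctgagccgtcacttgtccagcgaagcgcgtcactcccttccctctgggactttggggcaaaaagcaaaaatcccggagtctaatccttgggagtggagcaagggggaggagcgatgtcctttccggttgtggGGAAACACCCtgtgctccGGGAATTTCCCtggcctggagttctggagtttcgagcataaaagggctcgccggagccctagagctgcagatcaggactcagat
Cxcl2: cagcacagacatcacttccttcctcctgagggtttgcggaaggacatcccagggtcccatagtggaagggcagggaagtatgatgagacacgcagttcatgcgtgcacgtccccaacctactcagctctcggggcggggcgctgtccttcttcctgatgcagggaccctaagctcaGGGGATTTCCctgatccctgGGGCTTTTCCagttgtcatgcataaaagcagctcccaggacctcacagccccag
Cxcl10: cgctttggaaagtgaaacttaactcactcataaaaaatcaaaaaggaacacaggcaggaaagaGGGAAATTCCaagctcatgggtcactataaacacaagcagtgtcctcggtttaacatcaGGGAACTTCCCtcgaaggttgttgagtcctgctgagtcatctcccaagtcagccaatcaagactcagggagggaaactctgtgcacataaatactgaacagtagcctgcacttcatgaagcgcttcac
In Cxcl1 the matches began 102, 84 and 83 bases before the start, in Cxcl2 74 and 54, and in Cxcl10 187, 128 and 127. The last 2 matches of Cxcl1, and likewise of Cxcl10, overlap by all but 1 base, on opposite strands. A match is a description of letters and not a binding site.

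Motifs of stress hormone pathways were sought in the same way in the promoters of the named genes, of which 11 of the 15 higher and 9 of the 15 lower were in the table. The cAMP response element TGACGTCA was in none of the 20 and in 1.59% of all promoters. Its core TGACG, which also lies inside the full element, was in 4 of the 11 higher (Batf, C1qa, Chac1 and Cxcl1) and 1 of the 9 lower (Strn), and in 18.2% of all. The E-box CACGTG was in 3 of the 11 (Gadd45b, Gadd45g and Tgfb2) and none of the 9, and in 5.59% of all. The glucocorticoid response element, searched as GNACA, any 3 bases and TGTNC (0.373% of all), and the serum response element (1.5% of all) were in none of the 20.

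Genes known from tissue macrophages were also among those with large differences. A Resident macrophage list, written after values of these arrays had been seen, so that its counts are a description and support nothing, had 31 genes tested, of which 12 were higher past the study thresholds, beside 0.832% of all genes. They were C1qa, C1qb and C1qc, the 3 chains of complement C1q, the receptor tyrosine kinase Axl, which takes part in the uptake of dying cells, the eosinophil chemokine Ccl24, the folate receptor Folr2, the scavenger receptor Olr1, the phospholipid transfer protein Pltp, prostacyclin synthase (Ptgis), P-selectin (Selp), the hyaluronan receptor Lyve1 and Tgfb2. The other 19 were not, and the macrophage genes Mrc1 (-0.18 ± 0.78), Adgre1 (-0.23 ± 0.66), Cd68 (0.17 ± 0.61) and Gata6 (-0.03 ± 0.23), a factor of peritoneal macrophages, differed by less than their SE. Gata6 lay between 5.83 and 6.08 in the 4 arrays.

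C1qa measured 8.74 and 7.69 after saline and 5.37 and 4.67 at CIA baseline. C1qb measured 9.17 and 7.53 against 5.42 and 4.89 (3.19 ± 0.76, adjusted p = 0.305), and C1qc 8.53 and 7.33 against 5.96 and 5.10. For all 3 chains PLA rep 1 ranked 1 and PLA rep 2 ranked 3 among the 24 arrays. Ccl24 measured 10.21 and 9.58 against 5.69 and 5.08, a 22.8-fold difference, and Axl 9.08 and 8.08 against 5.55 and 4.93. Tgfb2, a growth factor of repair and fibrosis, measured 8.67 and 7.74 against 5.79 and 5.61 (2.50 ± 0.56), and its other probe set gave 1.28 ± 0.29. Ptgis lay at 7.76 and 7.40, the highest 2 of 24, against 5.56 and 5.60, and Folr2 at 8.13 and 7.76, also the highest 2, against 6.14 and 6.24. Selp lay at 8.62 and 7.97 against 6.09 and 6.03, the lowest 2 of 24.

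Of the 12, 9 were higher in PLA rep 1 than in rep 2, while the median of all 31 was 0.29 in rep 1 and 0.79 in rep 2. Past the thresholds were 10 of the 12 without PLA rep 2, without CIA baseline rep 2 or with platelet level as a covariate, Lyve1 and Pltp being the others. The genes were not high in the PLA arrays alone. NOCIA 1 hour rep 2 measured 8.38 for C1qa and 9.80 for Ccl24, against 5.40 and 7.42 in NOCIA 1 hour rep 1, and MTX 1 hour rep 1 measured 9.81 for Ccl24 and 8.26 for Axl, against 6.89 and 6.11 in MTX 1 hour rep 2. The MS 1 hour arrays, from rats given needle stimulation without an injection, were at 5.33 and 4.90 for Ccl24, below CIA baseline rep 1 (5.69), and rep 2 was also below CIA baseline rep 2 (5.08). The ANE 1 hour arrays, also from rats without an injection, were at 6.94 and 6.32, above both CIA baseline arrays. The part of the injection was not tested. Healthy baseline rats had 8.39 and 8.15 for Ccl24 and 7.40 and 6.69 for C1qa, above both CIA baseline arrays.

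**Figure D3:**
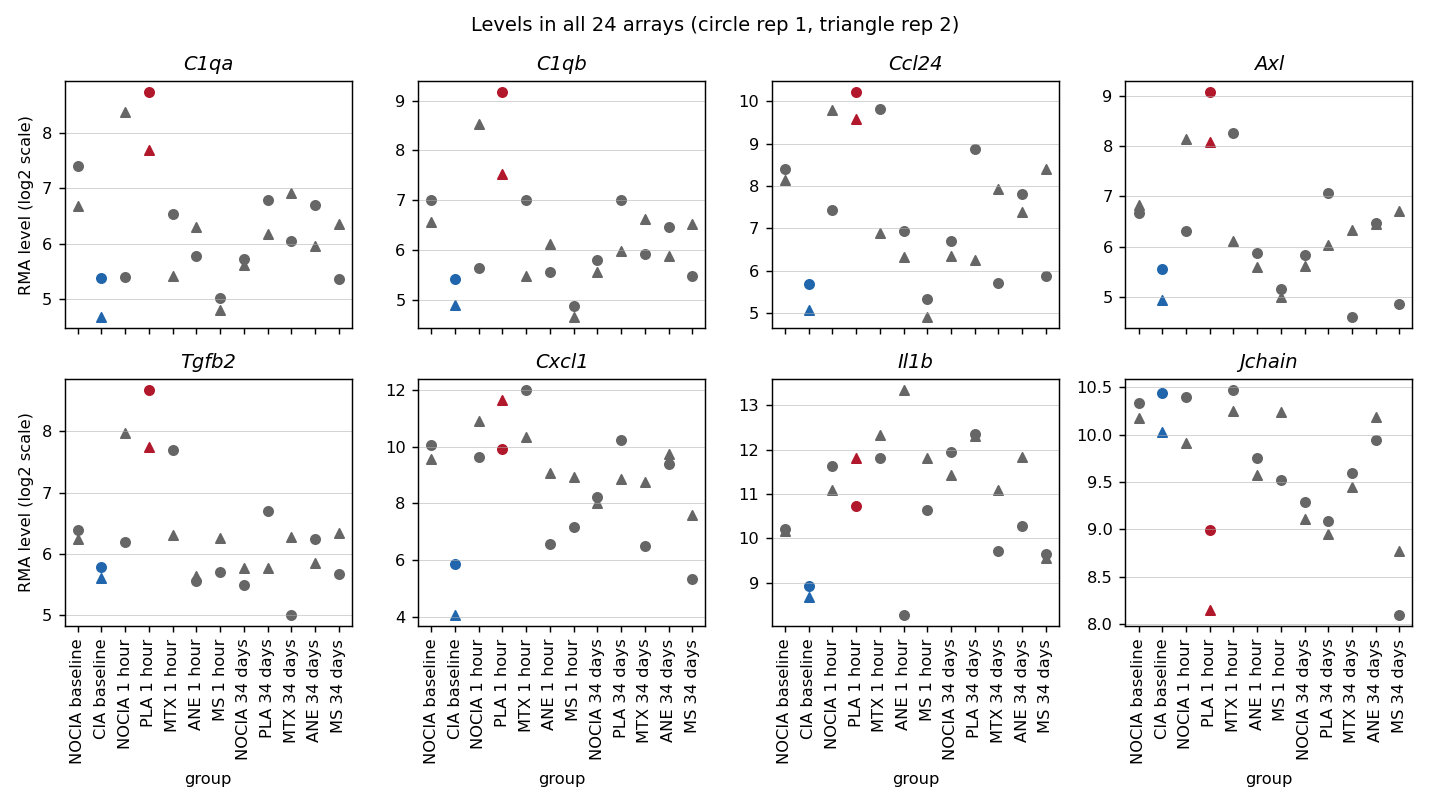
RMA level (log2 scale, vertical axis, a separate range per panel) of 8 genes in all 24 arrays by group, with PLA 1 hour in red and CIA baseline in blue, circles for rep 1 and triangles for rep 2. PLA 1 hour is high for C1qa, C1qb, Ccl24, Axl and Tgfb2 together with NOCIA 1 hour rep 2, and for Ccl24, Axl and Tgfb2 also with MTX 1 hour rep 1, and Jchain in PLA rep 2 is at 8.15, next to the lowest array of the series.

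A list of 24 regulators of NF-kB and survival was also written after the values were seen, so its counts likewise support nothing. In it 4 genes (16.7%) were higher past the study thresholds, beside 0.832% of all genes. They were Birc3, Gadd45b and Ier3, described above, and Bcl3, a nuclear IkB protein (9.17 and 8.98 against 7.41 and 6.75, 2.00 ± 0.55). The same 4 were past them without PLA rep 2. The inhibitor Nfkbia, which closes the NF-kB feedback loop, measured 12.94 and 12.81 against 12.12 and 12.03 (0.80 ± 0.52), and Tnfaip3 0.16 ± 0.28.

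Of the 15 genes named as lower, 3 belong to antibody secretion or immunoglobulins. Jchain measured 8.99 and 8.15 after saline and 10.44 and 10.03 at baseline, and Ighl2 10.47 and 9.40 against 11.94 and 11.50 (-1.79 ± 0.38, adjusted p = 0.232). Mzb1, an endoplasmic reticulum protein of antibody-producing cells, measured 8.38 and 7.39 against 9.26 and 8.75 (-1.12 ± 0.30). Of the 4 arrays PLA rep 2 was the lowest for all 3, and PLA rep 1 also lay below both baseline arrays. In the Plasma cell list of 7 genes, 2 were lower past the study thresholds (Jchain and Mzb1), the median was -0.45, and Xbp1, a factor of plasma cells, differed by 0.00 ± 0.43 with its arrays at 10.20 and 9.65 against 9.95 and 9.90.

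The other 12 lower genes were Ipp (-1.48 ± 0.34), Glce, an enzyme of heparan sulphate synthesis (-1.52 ± 0.41), Cpox, an enzyme of haem synthesis (-1.47 ± 0.41), Sash3, a lymphocyte adaptor (-1.11 ± 0.29), and Ikbip, Tmem204, Tm9sf2, Capzb, Mtf1, R3hdm2, Spast and Strn, with values from -1.29 to -1.04. Other probe sets of the same gene often differed by less. The actin-capping subunit Capzb differed by -1.13 ± 0.28 on a probe set with a mean level of 4.98 and by -0.09 ± 0.19 on a far brighter one. The metal-responsive factor Mtf1 differed by -1.04 ± 0.26 on the named probe set and by -0.23 ± 0.17 and 0.30 ± 0.26 on 2 brighter ones, R3hdm2 by -1.05 and -0.03, Spast by -1.19 and -0.34, and Strn by -1.10 and -0.37. The 2 other probe sets of Sash3 gave -1.24 and -0.92.

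Few lymphocyte markers were past the thresholds, though most had negative values. Of 20 T cell genes 17 had both PLA arrays below both baseline arrays, against 35.6% of all genes, and the median was -0.62, with -0.45 in PLA rep 1 and -0.75 in rep 2. Only 1 was past the study thresholds, the T cell factor Bcl11b, at 9.32 and 8.89 against 10.23 and 10.39 (-1.20 ± 0.45), and without PLA rep 2 or without CIA baseline rep 2 none was, while without PLA rep 1 4 T cell and 4 B cell genes were lower past them. Cd3g, a chain of the T cell receptor complex, measured 12.13 and 11.57 against 12.34 and 12.57 (-0.60 ± 0.45), and Il7r, the receptor for a survival signal of T cells, 9.51 and 8.65 against 10.16 and 10.03 (-1.02 ± 0.50). Of 11 B cell genes 8 lay below without overlap and none was past the thresholds (median -0.42), with Cd79b at -0.81 ± 0.36 and Ms4a1 at -0.67 ± 0.41. Of 19 NK and cytotoxic genes 15 lay below (median -0.59), with Klre1, a receptor of NK cells, past the thresholds at 7.62 and 7.86 against 9.43 and 9.42 (-1.69 ± 0.66), and the pore-forming protein Prf1 at -0.97 ± 0.55. Klre1 missed the thresholds without PLA rep 1 and without either CIA baseline array. The NK median was -0.64 in PLA rep 1 and -0.52 in rep 2. With platelet level as a covariate the T cell median was -0.21, the B cell median -0.33 and the NK median -0.38.

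Myeloid markers differed among themselves. The Monocyte list of 21 genes had a median of -0.18, with 1 past the thresholds, the Fc receptor Fcgr3a (-1.37 ± 0.56, groups not overlapping), while the integrin Itgam was at 1.01 ± 0.50 and the co-receptor Cd14 at 0.57 ± 0.96. Of 14 Neutrophil genes 9 lay above without overlap and 2 below, against 2099 above and 3937 below of all 11057 genes, with a median of 0.74. S100a8 and S100a9, the subunits of calprotectin, measured 12.18 and 11.97 against 10.40 and 10.48 (1.63 ± 0.96), and 13.56 and 13.35 against 11.92 and 12.14 (1.43 ± 0.84). The decoy receptor Il1r2 measured 10.42 and 10.36 against no more than 8.30 (2.24 ± 1.35), and the collagenase Mmp8 7.31 and 7.16 against 5.45 and 5.16 (1.93 ± 1.23). These 4 genes were alike in the 2 arrays of each group, and their SE came from the spread in other groups, such as 10.33 and 14.56 for S100a9 in the ANE 1 hour arrays. Padi4, an enzyme of neutrophils that citrullinates histones, was the only member past the thresholds (1.31 ± 0.56), and the granule genes Camp (0.04 ± 0.83) and Np4 (0.14 ± 0.84) lay within their SE. Padi4 missed the thresholds when any 1 of the 4 arrays was left out. With array weights, with only the groups compared fitted or without 3 arrays of other groups, 5 of the 14 were higher past the thresholds. They were Il1r2, Mmp8, Padi4, S100a8 and S100a9. When only the groups compared were fitted, limma also called S100a8, Il1r2 and Mmp8. With platelet level as a covariate 7 of the 14 were past the thresholds, all higher (Csf3r, Cxcr2, Il1r2, Mmp8, Padi4, S100a8 and S100a9). Fcgr3a missed them without PLA rep 2 and without CIA baseline rep 1.

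Platelet genes were higher in PLA rep 2. Their median over 20 genes was 0.90, which split into 0.23 in PLA rep 1 and 1.68 in rep 2. With platelet level as a covariate it was -0.12, but that level is the mean of these same 20 genes. A value near 0 was therefore fixed in advance and carries no information. The adhesive protein Vwf measured 9.95 and 11.59 against 9.79 and 9.58, and Ppbp, a platelet chemokine, 10.69 and 12.30 against 10.26 and 10.34. Past the thresholds were P2rx1, an ATP-gated channel (1.69 ± 0.78), and Selp, of which Selp alone was past them without PLA rep 2 or without either CIA baseline array. Selp was higher in PLA rep 1 than in rep 2, while the platelet median was higher in rep 2. Selp is on both the Platelet and the Resident macrophage list, and its cell source was not tested. Erythroid genes differed by a median of 0.60, with the 2 baseline arrays apart from each other, since Alas2, the first enzyme of haem synthesis in red cells, measured 12.62 and 12.57 against 12.83 and 11.15. Without CIA baseline rep 2 the erythroid median was 0.00 and without CIA baseline rep 1 it was 1.59.

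**Figure D4:**
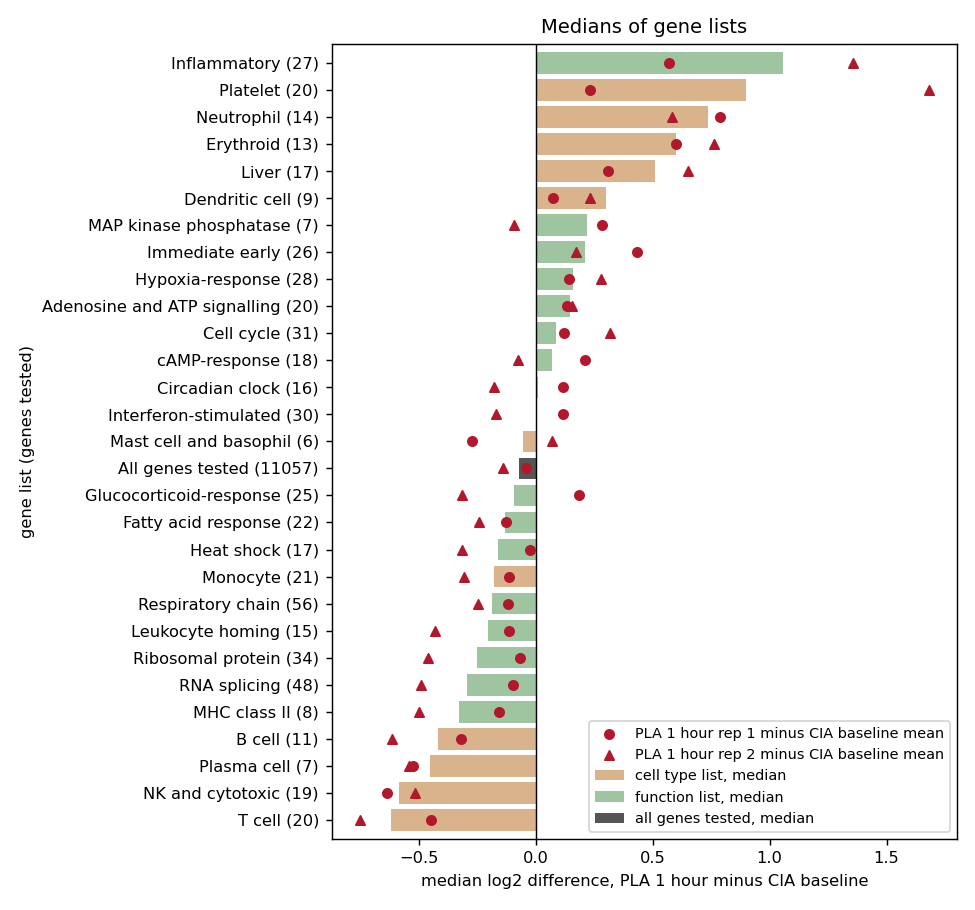
Median log2 difference between PLA 1 hour and CIA baseline (horizontal axis) of the cell type lists (tan bars), function lists (green bars) and all genes tested (dark bar), with the number of genes tested in brackets. Red circles and triangles give the median for PLA rep 1 and rep 2 against the baseline mean: the 2 arrays are far apart for the Platelet list (0.23 and 1.68) and lie on opposite sides of 0 for 6 lists, among them the Glucocorticoid-response list (0.18 and -0.31).

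The lists for stress hormones and acute signalling held few genes past the thresholds, and more of them with platelet level as a covariate. Of all genes 0.832% were higher past them and 0.461% lower. Higher shares were 7.69% for Immediate early, 8% for Glucocorticoid-response and 7.14% for Hypoxia-response genes, each from 2 genes. Lower shares were 3.85%, 4% and 0%. Of 26 Immediate early genes 2 were higher past them (Gadd45b and Ier3) and 1 lower, the growth factor-induced Egr1, at 9.01 and 8.76 against 9.68 and 10.15 (-1.03 ± 0.43). Fos measured 12.43 and 11.79 against 11.80 and 11.43 (0.50 ± 0.50), Jun differed by 0.85 ± 0.49 and Ier5 by 0.96 ± 0.29, and the list median was 0.21. Egr1 missed the thresholds without either PLA array and without CIA baseline rep 2, and with platelet level as a covariate 7 were past them, all higher, Fos and Jun among them. Of 18 cAMP-response genes, the targets of beta-adrenergic and adenosine A2 receptors, none was past the thresholds and the median was 0.07. Nr4a1 differed by -0.20 ± 0.42, Crem by 0.34 ± 0.40 and Per1 by 0.19 ± 0.37. Of the 20 genes for adenosine and ATP signalling only P2rx1 was past them, and the adenosine receptor Adora2a measured 8.56 and 8.42 against 8.03 and 8.11 (0.42 ± 0.36).

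Of 25 Glucocorticoid-response genes 2 were higher past the thresholds, the metallothionein Mt2A, at 11.79 and 10.75 against 9.70 and 8.65 (2.10 ± 0.63), and the mRNA-decay factor Zfp36, at 10.50 and 9.83 against 9.22 and 8.90 (1.11 ± 0.40). The co-chaperone Fkbp5, a standard glucocorticoid target, was lower at 8.41 and 7.70 against 9.23 and 8.92 (-1.02 ± 0.40), and Tsc22d3, another (GILZ), differed by -0.37 ± 0.28. Mt2A and Zfp36 missed the thresholds without PLA rep 1 and without CIA baseline rep 2, and Fkbp5 without PLA rep 2 and without CIA baseline rep 1. The list median was -0.09, and it was 0.18 without PLA rep 2 and 0.41 with platelet level as a covariate, where 6 genes were higher past the thresholds (Dusp1, Il1r2, Mt2A, Nfkbia, Sgk1 and Zfp36) and none lower. None of the 16 Circadian clock genes was past the thresholds, with Dbp at -0.49 ± 0.28, Per2 at 0.44 ± 0.17 and Cry2 at 0.50 ± 0.27. None of the 17 Heat shock genes was, with the inducible Hspa1a at 0.20 ± 0.24. Of 28 Hypoxia-response genes 2 were higher, both of glucose use: hexokinase Hk2 at 7.36 and 5.97 against 5.11 and 5.19 (1.51 ± 0.39) and the glucose transporter Slc2a3 at 8.47 and 9.57 against 7.43 and 7.20 (1.70 ± 0.43). Hk2 missed the thresholds without PLA rep 1. Vegfa, a hypoxia target, was at 0.15 ± 0.36. Of 30 Interferon-stimulated genes only Cxcl10 was past them and the median was 0.01. With platelet level as a covariate 6 were, and without PLA rep 2 they were 2.

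Lists of basic cell functions held few genes past the thresholds. The Ribosomal protein (34 genes), Respiratory chain (56), RNA splicing (48), Fatty acid response (22), MHC class II (8), Leukocyte homing (15) and MAP kinase phosphatase (7) lists held no gene past the thresholds in either direction. Their medians were -0.25, -0.19, -0.30, -0.13, -0.33, -0.20 and 0.22, against -0.07 over all genes. In the Cell cycle list of 31 genes only Cks2 was past them, while the proliferation genes Mki67 (-0.04 ± 0.40) and Top2a (0.39 ± 0.50) lay within their SE. The Dendritic cell list of 9 had none, and the Mast cell and basophil list of 6 had 1 lower, the basophil protease Mcpt8 (-1.15 ± 0.48), which missed the thresholds without either PLA array and without CIA baseline rep 1. The 17 Liver genes tested held none, and their median was 0.51, with albumin (Alb) at 6.37 and 8.30 against 6.08 and 5.68.

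The study compiled 7 lists from literature and Gene Ontology to follow injury and healing. Of 309 inflammation genes (InflGO) 22 were higher past the study thresholds and 3 lower, and of 427 response-to-wounding genes (rwGO) 15 higher and 3 lower, against 0.832% and 0.461% of all genes. Of 224 wound-healing genes (whGO) 6 were higher (P2rx1, Selp, Il1b, Cxcl2, Tgfb2 and Axl) and 2 lower (Fcgr3a and the thrombin receptor F2r). Of 197 genes of epithelial to mesenchymal transition (EMT) 9 were higher, among them Tgfb2, Ccnd1, Icam1, the matrix protein Ccn2 (1.59), Timp2 (1.15) and Bmp2 (1.08), and none lower. Of 59 genes of its wound-linked type (EMT.T2) 2 were higher (Ccn2 and Tgfb2). The early mechanotransduction list (Mec.E, 36 genes) had none, and early healing (Heal.E, 61) had 1 in each direction, Actn1 (1.21) and Trpm7 (-1.15), both of which missed the thresholds without PLA rep 2 and without CIA baseline rep 2. The medians of the 7 lists lay between 0.04 and 0.19. The counts depended on single arrays. Without PLA rep 2 the higher genes were 12 in InflGO, 9 in rwGO, 3 in whGO, 5 in EMT and 1 in EMT.T2. Without CIA baseline rep 2 they were 13, 9, 4, 4 and 1. Without PLA rep 1 they were 36 in rwGO, 20 in whGO and 5 in EMT.T2, and the lower genes were 11 in rwGO and 9 in whGO. Without CIA baseline rep 1 EMT had 6 higher and InflGO none lower.

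Healthy rats gave a comparison with no array in common, NOCIA at 1 hour against NOCIA at baseline, though no injection was described for them. Of the 147 probe sets that were higher after saline, 52 (35.4%) had both NOCIA 1 hour arrays above both NOCIA baseline arrays and 6 (4.08%) below. Over all probe sets these shares were 18.4% and 18.1%. Of the 137 lower, 61 (44.5%) lay below in NOCIA and 9 (6.57%) above. The median NOCIA difference was 0.45 over the first set and -0.40 over the second. Cks2 measured 9.88 and 9.60 in NOCIA at 1 hour and 8.06 and 8.09 at baseline, and its PLA difference minus its NOCIA difference was 0.04 ± 0.35. For Cxcl1, which was high in NOCIA at both times (9.65 and 10.90 at 1 hour), the same quantity was 5.36 ± 1.45, and for C1qa 3.35 ± 1.01. limma called 1 of 20690 probe sets (0.00483%) for this difference of differences, which was for Sik1 and came from a high NOCIA baseline. At the study thresholds it was positive in 96 (0.464%) and negative in 85 (0.411%). The adjusted p was 0.985 for both Cxcl1 and C1qa, so a difference between arthritic and healthy rats in these genes was not detectable with 2 arrays a group.

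MTX and PLA rats had the same injection route and anaesthetic, and MTX 1 hour against PLA 1 hour gave 0 called probe sets (limma, 0%), with 1523 at an unadjusted p under 0.05. At the study thresholds 161 (0.778%) were higher with MTX and 61 (0.295%) lower. Cxcl1, at 10.34 or more in both MTX arrays, differed by 0.39 ± 1.02, Gadd45b by -0.20 ± 0.47 and Cks2 by -0.14 ± 0.24. Jchain was at 10.47 and 10.25 with MTX, above both PLA arrays (1.79 ± 0.30, adjusted p = 0.38), and Ighl2 at 12.05 and 11.93 (2.06 ± 0.38). C1qa was at 6.53 and 5.41, lower than in both PLA arrays (-2.24 ± 0.71, adjusted p = 0.63), and Batf at 8.80 and 8.53 (-1.56 ± 0.41). Tnf was higher with MTX by 2.94 ± 0.75. These values use the same PLA arrays as the main comparison, so a PLA array that is unusual moves both.

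ANE rats had no needle and isoflurane in place of ether, and ANE 1 hour against PLA 1 hour gave 5 called probe sets (0.0242%), all higher in ANE. They were Sult1b1, a sulphotransferase (4.08 ± 0.54, adjusted p = 0.0131), Pck1, the enzyme that commits to glucose synthesis (1.65 ± 0.21), Fmo5, a flavin monooxygenase (1.82 ± 0.26), the serum esterase Pon1 (1.35 ± 0.20) and the transcription factor Nrf1 (0.97 ± 0.15). Apart from Nrf1 these are genes of liver or gut. Sult1b1 measured 8.79 and 5.96 in ANE and 3.28 and 3.31 in PLA, and 10 of the 17 Liver genes were higher in ANE past the study thresholds (median 1.75). Alb was 2.44 ± 1.13 higher in ANE. The mean centred Liver level was 2.67 and 0.76 in the ANE arrays and -0.25 and 0.37 in PLA. It was not high in ANE alone, with 1.14 and 1.24 in the NOCIA baseline arrays, where Sult1b1 measured 5.29 and 5.08. At the study thresholds 103 probe sets (0.498%) were higher in ANE and 285 (1.38%) lower. Among the lower were Sdc4 (7.15 and 7.32 in ANE, -2.01 ± 0.37, adjusted p = 0.0856), Birc3 (7.85 and 8.28, -1.68 ± 0.32, adjusted p = 0.107), Ptgis (-1.96 ± 0.39) and Ccl24 (-3.27 ± 1.05). Without ANE rep 1 the calls were 86 and without ANE rep 2 237, while without PLA rep 1 they were 2 and without PLA rep 2 1. Cxcl1 was at 6.56 and 9.08 in ANE, below both PLA arrays and above both CIA baseline arrays. Sdc4, Birc3, Ptgis, Ccl24 and Cxcl1 were picked with their high values in these same PLA arrays known. That choice alone moves ANE minus PLA down, so they are no separate support for a difference.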

How the data were processed

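RNA of Ficoll-separated blood mononuclear cells was extracted in 1 batch and hybridised to Affymetrix whole-genome rat arrays. The authors deposited log2 levels, which the labels attribute to RMA in affy, whose version is not given in the sources used here. MAS5 intensities, also described in the methods, were not used here. High values may be compressed.

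Of 31099 probe sets in all, 20832 carried 1 gene symbol, and 57 controls were dropped. The filter retained 20690 that exceeded the 40th percentile in 2 or more arrays. Comparisons used limma 3.58.1 (R 4.3.3) fitted to all 24 arrays with 1 coefficient for each group, 12 residual degrees of freedom and Benjamini-Hochberg adjustment. The study thresholds are unadjusted p under 0.05 and more than 2-fold. The study applied them to MAS5 intensities and, in this batch, dropped genes with an absent detection call in any array compared. That step was not taken here, so the counts follow a looser rule. The number of arrays limits the precision.

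Named genes, 15 in each direction, had 1 symbol and no overlap between groups. The rule put called probe sets first, and as none was called it took them by moderated statistic from those past the study thresholds. Members of described lists were named besides. A gene in a list is its probe set of highest mean. A mean centred level is the mean over a list of each gene's value minus its mean over 24 arrays. The members and lists were chosen with earlier results of these data known. The fits were tested on simulated data. Alternatives were a replicate block, only the groups compared, no filter, the 60th percentile, quantile normalization, limma-trend, array weights and platelet level as a covariate. Others left out each array in turn, or 3 arrays of other groups together. Those 3 were MS 34 days rep 1, MS 1 hour rep 1 and ANE 1 hour rep 1. For list medians a gene's probe sets were also averaged.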

Additional observations from a re-analysis of the deposited data

Results flagged for a closer look

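Sik1, a kinase induced by cAMP, was the 1 probe set called when the 1-hour difference of PLA was set against that of NOCIA, at 3.54 ± 0.28 (limma adjusted p = 2.42e-05). Healthy rats at baseline measured 8.74 and 8.81 on it. The other 22 arrays ranged from 4.91 to 5.61, with PLA 1 hour at 5.33 and 5.38 and CIA baseline at 5.31 and 5.18. The PLA difference itself was 0.11 ± 0.20. The brighter probe set of Sik1 measured 9.35 and 9.39 at NOCIA baseline and 9.38 and 8.94 at NOCIA 1 hour, and gave a difference of differences of -0.18 ± 0.46 (adjusted p = 0.985). The cause of the disagreement between the probe sets was not tested.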

How the results depend on the processing

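For PLA 1 hour against CIA baseline, limma called 0 probe sets, and 36 when only the groups compared were fitted, 51 without 3 arrays of other groups, 9 with array weights, 5 with platelet level as a covariate and 1 with quantile normalization. Leaving out each array gave 0 to 3, with 3 without PLA rep 1. At the study thresholds the 284 became 493, 497 and 429 in the first 3 of these fits, 321 (273 higher, 48 lower) with platelet level, and 191 to 795 when each array was left out, with 795 without PLA rep 1 and 191 without PLA rep 2 or CIA baseline rep 2. MTX 1 hour against PLA 1 hour went from 0 to 1 with array weights, 2 with only the groups compared, 5 without 3 arrays of other groups and 0 to 2 leaving out each array (2 without PLA rep 1). ANE 1 hour against PLA 1 hour went from 5 to 2 with array weights, 0 with only the groups compared and with the stricter filter, 203 with platelet level, 15 with quantile normalization, 668 without 3 arrays of other groups and 1 to 237 leaving out each array. The difference between PLA and NOCIA went from 1 to 6 with only the groups compared, 11 without 3 arrays of other groups and 1 to 2 leaving out each array (2 without PLA rep 1 or NOCIA baseline rep 1).

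The direction of all 30 named genes was the same in every alternative in which they were tested, but most of this was fixed in advance. Named genes had no overlap between groups, so leaving out 1 array could not turn the sign. Fits such as array weights or only the groups compared change the spread and not the difference. In 31 of their values, against 384 others, a gene passed the adjusted threshold that it missed in the main fit. List medians had the other sign in 28 values, none for the Inflammatory, Resident macrophage, T cell, B cell, NK or Neutrophil list. The Platelet median did with platelet level as a covariate, which is computed from the same genes. The labels do not say that a replicate number pairs rats, and deviations of same-numbered CIA baseline and PLA arrays correlated at -0.12. With the replicate block 0 probe sets were called for PLA against CIA baseline, 0 for MTX, 6 for ANE and 1 for the difference from NOCIA. With the PLA numbers crossed, chosen after seeing the data, 0 were called. With 2 arrays a group the count of calls depends on the arrays of other groups that set the spread. The fit of the 4 arrays alone called 36 probe sets, but an exact permutation test of 2 against 2 arrays cannot check any p-value here.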
